A study of Mus musculus with 80 samples.

Results

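The 10 arrays described here compare the whole lungs of 5 CD-1 mice that breathed styrene at 40 ppm with those of 5 CD-1 mice that breathed air (0 ppm). They were taken by their titles from the 80 arrays of the series, which cover CD-1 mice and C57Bl/6 mice labelled WT, KO or TG, at 4 doses. CD-1 is an outbred stock. All 10 animals were adult males from Taconic, each exposed once for 6 h in its own wire-mesh cage, and the lungs were collected the next morning. The labels call the 5 animals of a group biological replicates and give no genetic change, age in weeks or exposure batch. Other CD-1 groups used below breathed 10 ppm (5 arrays) or 120 ppm (5 arrays). In addition, 10 arrays came from C57Bl/6 wild-type (WT) males at 40 ppm or in air, 5 of each.

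Styrene is a solvent and plastics monomer that is oxidised in the mouse lung, chiefly in the club cells of the small airways, where the cytochrome P450 CYP2F2 turns it into reactive products. Club cells secrete protective proteins into the airway lining and carry much of the lung's detoxifying capacity. Interferon-stimulated genes form another system: a cell that senses foreign or misplaced nucleic acid makes interferon, and its receptor signals to transcription factors that bind a short element in front of the responding genes. Cells that enter the division cycle switch on the DNA replication genes before those of mitosis.

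Each value is the deposited log2 signal of 1 probe set per gene, so a difference of 1 is a change of 2-fold. Of 17097 genes with a symbol, 11406 were tested with limma, on a fit of all 20 CD-1 arrays, and p values were adjusted over all 11406 genes. Lung markers were at the same high level in every array: Sftpc, the surfactant protein of alveolar type 2 cells, ran from 13.68 to 13.74 at 40 ppm and from 13.63 to 13.73 in air. Scgb1a1, the main secretory protein of club cells, ran from 13.60 to 13.75 at 40 ppm and from 13.69 to 13.73 in air. Ager, the marker of alveolar type 1 cells, ran from 13.33 to 13.42 at 40 ppm and from 13.31 to 13.42 in air. These readings lie close to the highest value of the table, 13.89, so they may not show changes in these cells. In whole lung, fewer cells of a type and less RNA per cell cannot be told apart.

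A pair of arrays stood apart from their groups, both numbered replicate 4. Air replicate 4 carried squamous epithelium and skeletal muscle transcripts. The squamous keratin Krt4 read 11.57 on it, against 3.18 to 3.61 at 40 ppm and 2.99 to 3.23 on the other air arrays. The skeletal muscle actin Acta1 read 11.30 on it, against 3.30 to 3.56 at 40 ppm and 3.39 to 3.62 on the other air arrays. Loricrin (Lor, 9.12), Sprr3 (8.93) and Rptn (8.51) of the cornified layer followed Krt4, and the fast troponin Tnnc2 (10.68), the myosin Myh1 (9.27) and the myosin light chain Mylpf (10.04) followed Acta1. The summed linear signal of the 23 measured squamous markers was 810 to 1025 at 40 ppm, against 7442 on air replicate 4 and 855 to 994 on the other air arrays. That of the 19 skeletal muscle markers was 623 to 1190 at 40 ppm, against 13744 on air replicate 4 and 675 to 1320 on the other air arrays. The other array, 40 ppm replicate 4, had 94 tested genes more than 1 log2 unit above all 4 other arrays of its group and 9 below. Among its high genes were Timp1, a metalloproteinase inhibitor, at 9.69 (6.22 to 6.67 on the others), and Saa3, an acute phase protein, at 9.05 (5.48 to 6.36 on the others). Values without 1 or both of these arrays stand beside many of the results below.

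**Figure D1:**
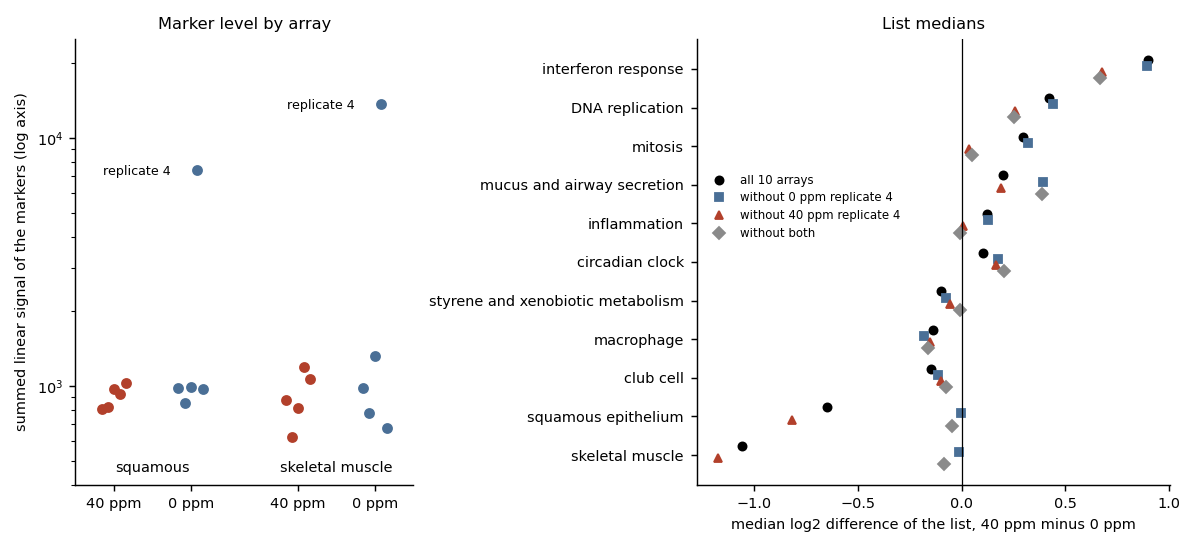
Left, summed linear signal (log axis) of the squamous and skeletal muscle markers on each array, 40 ppm left of 0 ppm; air replicate 4 lies at 7442 and 13744 while the other 9 arrays lie at 623 to 1320. Right, median log2 difference (40 ppm minus 0 ppm) of 11 gene lists from all 10 arrays and without 1 or both replicate 4 arrays; the muscle and squamous medians move to about 0 without air replicate 4, and the interferon median stays at 0.67 or above.

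Across all genes, 1 gene passed the test between 40 ppm and air, and it fell: Pon1. No gene passed as higher. The called share was therefore 0% of 11406 genes higher and 0.00877% lower. At an unadjusted p under 0.05 there were 304 genes higher (2.67%) and 138 lower (1.21%), 442 in all; 5% of the tested genes is 570.3. The median standard error of a difference was 0.11. Without air replicate 4 the call was again Pon1 alone, with 349 genes at an unadjusted p under 0.05, and without 40 ppm replicate 4 it was Pon1 alone, with 416. Without both, limma called 0 genes, with 353 at an unadjusted p under 0.05.

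Pon1 encodes serum paraoxonase, an esterase and lactonase that hydrolyses organophosphate oxons and lactones, and was among the club cell markers. Its log2 signal was 8.80, 9.32, 9.45, 8.93 and 9.81 at 40 ppm, against 10.53, 10.78, 10.65, 10.97 and 10.68 in air. Every array at 40 ppm lay below every air array. The mean fell to 9.26 ± 0.41 at 40 ppm, against 10.72 ± 0.16 in air (SD, n = 5 each), a log2 difference of -1.46 ± 0.19 (SE; 95% interval -1.85 to -1.07; limma adjusted p = 0.00255). The fall is 2.75-fold. It was -1.40 without air replicate 4 (adjusted p = 0.0150) and -1.38 without 40 ppm replicate 4 (adjusted p = 0.0149). Without both it was -1.32 and no longer passed (adjusted p = 0.0698). The next genes by p were Irf7 (adjusted p = 0.261), Ddx60, Rnf213 and Oas1g (adjusted p = 0.350 each).

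The 250 bases before the start of Pon1 are shown because it is the gene that passed; in RefSeq's promoter table (GRCm38.p6) they lie on the minus strand at chr6:5193947-5194196. Capitals mark CCAAT, searched on both strands, whose letters are those of the common CCAAT box; 33.8% of all 32851 windows of this length in the table hold it, and this window holds it 2 times, both on the opposite strand.
Pon1: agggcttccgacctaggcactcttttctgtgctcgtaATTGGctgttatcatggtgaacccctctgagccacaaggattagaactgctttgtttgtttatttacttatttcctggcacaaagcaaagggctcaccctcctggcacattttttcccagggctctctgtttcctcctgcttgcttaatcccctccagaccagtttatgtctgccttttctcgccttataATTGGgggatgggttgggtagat

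**Figure D2:**
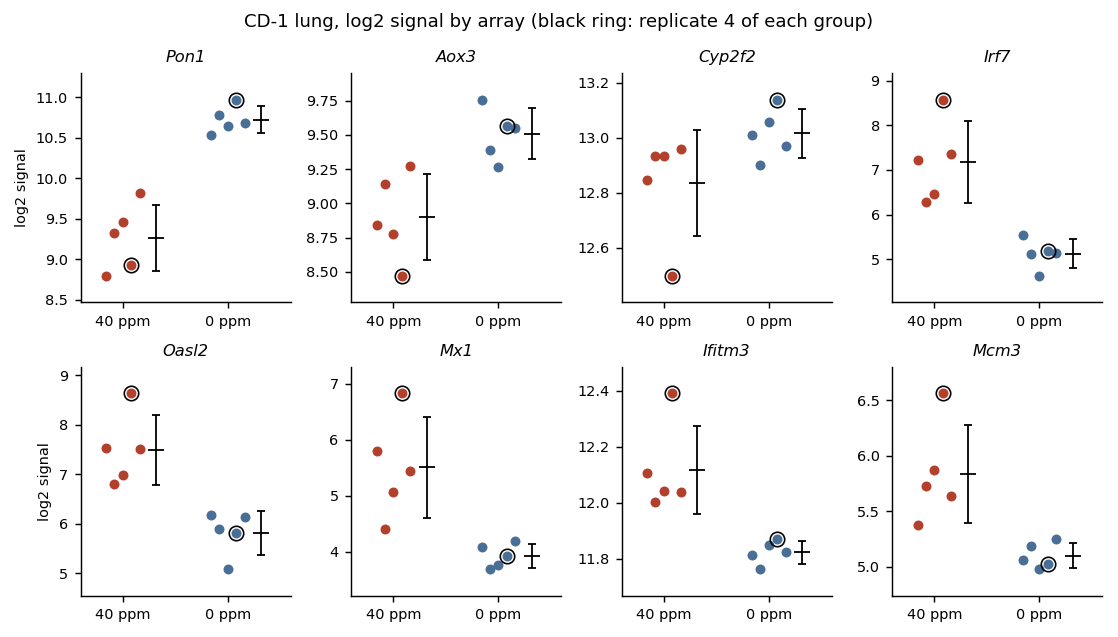
Log2 signal of 8 genes on each CD-1 array, 40 ppm left of 0 ppm, with the mean and SD beside the points and a black ring round replicate 4 of each group. Pon1 at 40 ppm (8.80 to 9.81) lies below air (10.53 to 10.97), and Irf7, Oasl2, Mx1, Ifitm3 and Mcm3 lie above air on all 5 arrays without passing the test.

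Interferon response genes came next by p: 5 of the 15 named higher genes were on this list (Irf7, Oasl2, Dhx58, Mx1 and Ddx58). None of the 23 tested genes of this list passed (30 in the list, 25 measured). Their differences were above 0 for 22 of 23, with a median of 0.90, against a median of 0.01 over all tested genes. All 5 arrays at 40 ppm lay above all 5 air arrays for 12 of the 23, where 0.491% of all tested genes did so. An unadjusted p under 0.05 was seen for 18 of the 23, where 2.67% of all tested genes lay higher at that p.

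Irf7, the transcription factor that amplifies the interferon response, had the lowest p of the list. It read 7.22, 6.28, 6.46, 8.57 and 7.36 at 40 ppm, against 5.55, 5.13, 4.64, 5.18 and 5.13 in air. The groups did not overlap, and replicate 4 was the highest at 40 ppm. The difference was 2.06 ± 0.39 (SE; adjusted p = 0.261), or 1.72 without both replicate 4 arrays. Oasl2, a 2'-5' oligoadenylate synthetase-like antiviral protein, read 7.53, 6.81, 6.99, 8.63 and 7.50 at 40 ppm, against 6.18, 5.90, 5.08, 5.81 and 6.13 in air. Its difference was 1.68 ± 0.37 (adjusted p = 0.352; 1.39 without both replicate 4 arrays), again with no overlap. Dhx58, which encodes the RNA sensor LGP2, read 6.58, 5.93, 6.14, 7.62 and 6.38 at 40 ppm, against 5.04, 5.36, 5.08, 5.27 and 5.53 in air. Mx1, a GTPase that blocks influenza-like viruses, read 5.80, 4.41, 5.06, 6.83 and 5.44 at 40 ppm, against 4.09, 3.69, 3.76, 3.92 and 4.19 in air. Neither gene's groups overlapped, and both had an adjusted p of 0.352, with differences of 1.27 ± 0.30 for Dhx58 and 1.58 ± 0.38 for Mx1. Without both replicate 4 arrays these were 1.00 and 1.25.

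Among signalling and sensing members, Ddx58, Stat2 and Irf9 showed smaller differences than Irf7 and Dhx58. Ddx58, which encodes the RNA sensor RIG-I, differed by 0.48 ± 0.12 and did not overlap between the groups. Stat2 differed by 0.62 ± 0.16 and Irf9, its DNA-binding partner, by 0.43 ± 0.13 (0.27 without both replicate 4 arrays), both without overlap. Among the effectors, Oas2 differed by 1.43 ± 0.38, Oasl1 by 1.44 ± 0.40, Ifit3 by 1.01 ± 0.29, Ifit2 by 0.90 ± 0.29 and Rtp4 by 0.89 ± 0.24, all without overlap (adjusted p = 0.504 to 0.962). Ifit1 (1.49 ± 0.41), Usp18, the enzyme that removes ISG15 (1.34 ± 0.37), and Zbp1, a nucleic acid sensor (1.43 ± 0.39), overlapped between the groups. Of genes known to respond strongly to interferon gamma, the GTPases Iigp1 (0.57 ± 0.31) and Gbp3 (0.56 ± 0.24) and their relative Gbp2 (-0.01 ± 0.13) overlapped between the groups. So did the chemokine Cxcl9, at 0.16 ± 0.36, or 0.41 without air replicate 4 and -0.10 without 40 ppm replicate 4. The chemokine Cxcl10 rested on few arrays: it read 5.44, 3.52, 3.87, 7.09 and 4.47 at 40 ppm, against 3.81, 3.30, 3.22, 4.12 and 3.51 in air, and the groups overlapped. Its difference was 1.29 ± 0.66, or 0.73 without 40 ppm replicate 4.

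Within the 40 ppm group the same arrays were high and low for many of these genes. For Irf7, Oasl2, Dhx58, Mx1, Ifit1, Ifit3 and Cxcl10, replicate 4 had the highest signal of the group and replicate 2 the lowest. The summed linear signal of the measured list was 4059 to 11220 at 40 ppm, against 2744 to 3877 in air. Without 40 ppm replicate 4 it was 4059 to 6115 at 40 ppm, still above every air array. The list median was 0.89 without air replicate 4, 0.68 without 40 ppm replicate 4 and 0.67 without both. The number of the 23 genes without overlap was 15 without air replicate 4 (0.736% of all tested genes), 12 without 40 ppm replicate 4 (0.85%) and 15 without both (1.25%). The marker lists of immune cells had medians of 0.12 for neutrophils (0.05 without air replicate 4), -0.06 for T and NK cells (0.15 without air replicate 4), 0.12 for B cells (0.04 without 40 ppm replicate 4) and -0.14 for macrophages. The summed signal of the 14 T and NK markers was 1005 to 1931 at 40 ppm, against 4825 on air replicate 4 and 977 to 1897 on the other air arrays. The part of any of these cells in the interferon values was not tested.

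**Figure D3:**
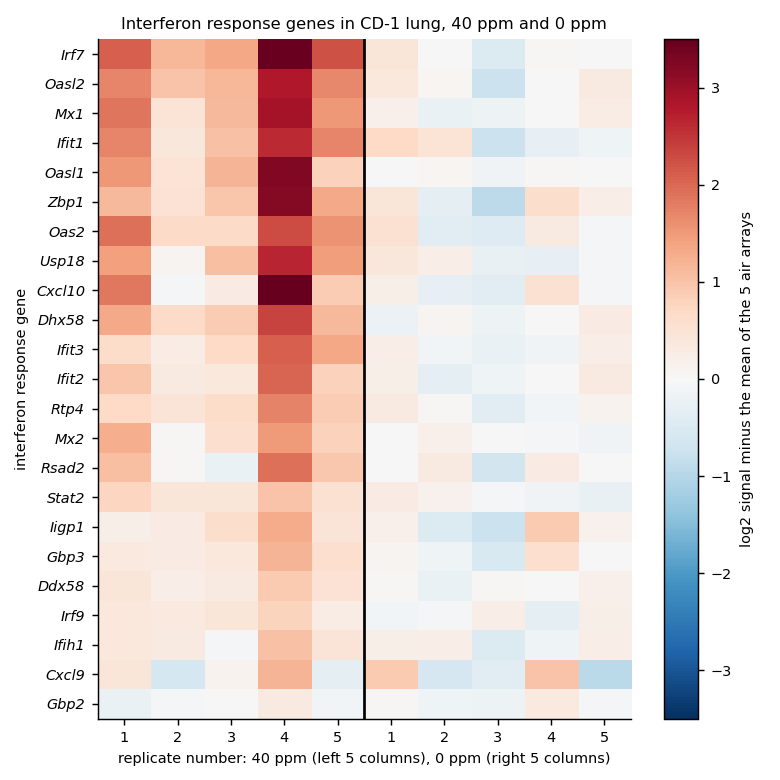
Log2 signal of the 23 tested interferon response genes (rows, ordered by their difference) on each CD-1 array, 40 ppm left and 0 ppm right, minus each gene's mean over the 5 air arrays (colour). Replicate 4 at 40 ppm is the darkest column and replicate 2 the palest of the 40 ppm group. The groups do not overlap in 12 of the 23 rows, and Cxcl9 and Gbp2 are among the rows that overlap.

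The rule for named genes also took higher genes outside that list, none of which passed. Ddx60, a helicase of antiviral sensing, read 5.37, 4.76, 4.97, 6.20 and 5.44 at 40 ppm, against 3.91, 4.11, 3.83, 3.92 and 4.47 in air, a difference of 1.30 ± 0.27. Oas1g, an oligoadenylate synthetase, read 8.24, 7.19, 7.52, 9.44 and 8.25 at 40 ppm, against 7.10, 6.12, 5.50, 6.15 and 6.53 in air, a difference of 1.85 ± 0.39. Mouse Oas1 genes are close copies of each other, so its signal may hold that of a relative. In neither gene did the groups overlap, and without both replicate 4 arrays the differences were 1.06 for Ddx60 and 1.49 for Oas1g. Rnf213, a large ubiquitin ligase, differed by 0.80 ± 0.17, Lgals9, which encodes galectin 9, by 0.59 ± 0.14, and Ifitm3, a membrane protein that hinders virus entry, by 0.29 ± 0.07. Apol9a differed by 1.91 ± 0.48 and ranged from 3.92 to 7.22 at 40 ppm, against 3.13 to 3.65 in air. The probe set named Gm9706 differed by 2.25 ± 0.50; its s_at suffix marks probes shared by more than 1 transcript, so the gene is uncertain.

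The interferon-stimulated response element is built on a pair of GAAA cores, searched here as GAAA, any 2 bases, GAAA on both strands in the 250 bases before each start. Of the 23 list genes 15 had a window in RefSeq's table and 7 of these held the motif: Stat2, Ifit1, Ifit3, Gbp3, Rsad2, Cxcl10 and Gbp2. By comparison 3.15% of the 9205 tested genes with a window, and 2.98% of all 32851 windows, held it. It was not in the windows of Irf7, Oasl2, Ddx58, Oasl1, Irf9 and Ifit2, which differed without overlap. Stat2 and Ifit3 held it and differed without overlap, while Gbp2 held it and differed by -0.01. The windows of Oas1g, Ddx60 and Ifit1 are shown because all 3 hold it 2 times, with the motif in capitals. They lie at chr5:120887614-120887863 (minus strand), chr8:61927837-61928086 (plus) and chr19:34640639-34640888 (plus) of GRCm38.p6; the copies of Oas1g overlap and end 2 bases before its start.
Oas1g: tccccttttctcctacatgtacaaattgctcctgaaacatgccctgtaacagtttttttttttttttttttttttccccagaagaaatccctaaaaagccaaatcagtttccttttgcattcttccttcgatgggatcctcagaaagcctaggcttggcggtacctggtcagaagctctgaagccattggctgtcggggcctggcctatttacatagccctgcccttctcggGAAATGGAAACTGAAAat
Ddx60: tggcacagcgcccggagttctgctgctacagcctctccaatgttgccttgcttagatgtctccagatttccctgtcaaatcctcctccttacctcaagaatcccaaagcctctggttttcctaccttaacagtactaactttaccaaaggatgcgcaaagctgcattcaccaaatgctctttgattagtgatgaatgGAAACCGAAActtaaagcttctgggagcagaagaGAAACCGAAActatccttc
Ifit1: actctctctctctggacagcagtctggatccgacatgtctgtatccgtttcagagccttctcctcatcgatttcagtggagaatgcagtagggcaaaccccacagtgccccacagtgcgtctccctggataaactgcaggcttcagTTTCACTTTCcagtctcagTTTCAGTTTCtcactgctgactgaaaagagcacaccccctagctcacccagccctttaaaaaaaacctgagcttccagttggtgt

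Genes of DNA replication lay slightly above air as a group. All 25 tested members had a difference above 0 (0.19 to 0.95), with a median of 0.42. An unadjusted p under 0.05 was seen for 14, where 2.67% of all tested genes lay higher at that p. None passed. Mcm3, a subunit of the replicative helicase, read 5.38, 5.73, 5.87, 6.56 and 5.64 at 40 ppm, against 5.06, 5.18, 4.98, 5.03 and 5.25 in air. It was the 1 member whose groups did not overlap, where 0.491% of all tested genes lay higher without overlap. The difference of Mcm3 was 0.73 ± 0.17 (adjusted p = 0.352), or 0.53 without both replicate 4 arrays. Its partners Mcm6 (0.62 ± 0.19, or 0.39 without both replicate 4 arrays) and Mcm4 (0.40 ± 0.13) and Pola1, the catalytic subunit of DNA polymerase alpha (0.42 ± 0.12), overlapped between the groups. The list median was 0.44 without air replicate 4, but 0.26 without 40 ppm replicate 4 and 0.25 without both.

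The mitosis genes rested on 1 array. All 16 tested members were above 0 with a median of 0.30, but the median was 0.04 without 40 ppm replicate 4, and none passed or was free of overlap. Cdk1, the kinase that starts mitosis, read 4.34, 4.98, 5.50, 7.40 and 5.55 at 40 ppm, against 4.87, 4.71, 4.23, 5.10 and 5.41 in air. Replicate 4 was the high array, and the others lay within or just above the air range. Ccna2 (0.59 ± 0.33), Aurkb (0.45 ± 0.27) and Cdc20 (0.39 ± 0.24) each differed by less than 2 standard errors, and by 0.19, 0.12 and 0.10 without 40 ppm replicate 4. The other 2 named higher genes outside these groups were Bid, a pro-apoptotic BCL2 relative (0.52 ± 0.12), and Hlcs, which attaches biotin to carboxylases (0.34 ± 0.08); neither overlapped between the groups and both had an adjusted p of 0.352.

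Club cell genes other than Pon1 showed differences that did not pass. Of 15 tested markers 13 lay below 0, with a median of -0.15 (-0.11 without air replicate 4, -0.10 without 40 ppm replicate 4 and -0.08 without both), and Pon1 was the 1 that passed. Cyp2f2 read 12.85, 12.93, 12.93, 12.50 and 12.96 at 40 ppm, against 13.01, 12.90, 13.06, 13.14 and 12.97 in air. Replicate 4 was the low array of the 40 ppm group, and the difference of -0.18 ± 0.10 became -0.10 without it. Scgb3a2, a secretoglobin, differed by -0.28 ± 0.11, the membrane protein Lypd2 by -0.90 ± 0.40 and the aldehyde dehydrogenase Aldh1a7 by -0.32 ± 0.16 (adjusted p = 0.9995 each). Without both replicate 4 arrays these were -0.12, -0.59 and -0.21, and Scgb3a2 was -0.16 without 40 ppm replicate 4 alone. The summed signal of the 16 measured markers was 49383 to 60536 at 40 ppm, against 54625 to 64363 in air, so the groups overlapped.

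Among 25 tested genes of styrene and xenobiotic metabolism, 19 lay below 0 with a median of -0.10 (-0.06 without 40 ppm replicate 4 and -0.01 without both), and none passed. Aox3, an aldehyde oxidase, read 8.84, 9.14, 8.77, 8.47 and 9.27 at 40 ppm, against 9.76, 9.39, 9.27, 9.57 and 9.55 in air. The highest 40 ppm array met the lowest air array, and the difference was -0.61 ± 0.14 (adjusted p = 0.352; -0.48 without both replicate 4 arrays). The related oxidase Aox1 differed by -0.22 ± 0.11. In the other direction Ces1g, a carboxylesterase, read 5.15, 5.40, 5.42, 6.17 and 6.13 at 40 ppm, against 4.36, 4.88, 4.17, 4.48 and 5.18 in air, a difference of 1.04 ± 0.28 (adjusted p = 0.504; 0.88 without both replicate 4 arrays). Of NRF2 and glutathione genes 11 of 21 lay above 0 (median 0.04, or -0.02 without 40 ppm replicate 4). Nqo1, the quinone reductase, was the 1 without overlap, at 0.56 ± 0.19, where 0.491% of all tested genes lay higher without overlap. Gclm (0.18 ± 0.08), of glutathione synthesis, and Taldo1 (0.20 ± 0.09), of the pentose phosphate pathway, overlapped. So did Gstm2, which lay below 0 (-0.18 ± 0.09). Of 7 tested aryl hydrocarbon receptor targets 4 lay above 0 and 3 below, with a median of 0.08, and none passed. Aldh3a1 differed by -0.43 ± 0.36 (-0.18 without air replicate 4) and Cyp1b1 by -0.18 ± 0.22 (-0.06 without air replicate 4). Cyp1a1 differed by 0.74 ± 0.55, with arrays from 3.58 to 7.14 at 40 ppm, against 3.64 to 5.87 in air. That difference ran from 0.29 (without 40 ppm replicate 5) to 1.18 (without 40 ppm replicate 4) when single arrays were left out, and was 0.50 without air replicate 4.

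The other named lower genes did not pass. Slc4a5, a sodium bicarbonate cotransporter, read 6.90, 6.89, 6.77, 6.44 and 7.17 at 40 ppm, against 7.48, 7.32, 7.42, 7.58 and 7.22 in air, a difference of -0.57 ± 0.12 (adjusted p = 0.351; -0.43 without both replicate 4 arrays) without overlap. Ldhb, the lactate dehydrogenase B chain, read 9.31 to 9.71 at 40 ppm, against 9.73 to 10.28 in air (-0.48 ± 0.11). Calcb, which encodes the beta form of calcitonin gene-related peptide, read 3.41 to 4.54 at 40 ppm, against 4.57 to 5.45 in air (-0.81 ± 0.26). The uncharacterised 2310010J17Rik (-0.55 ± 0.13) and Mfsd4a (-0.53 ± 0.16) also did not overlap. Across all tested genes 0.175% lay lower without overlap, 20 genes. Depp1 (-0.52 ± 0.14), Itih5 (-0.74 ± 0.20), Fsd2 (-0.33 ± 0.09), Grhl1 (-0.45 ± 0.13) and Nectin4 (-0.32 ± 0.10) overlapped. So did 1700012D01Rik (-0.51 ± 0.15), Itih2 (-0.59 ± 0.18) and Cpe (-0.40 ± 0.13). Grhl1 and Itih5 had their highest air value on replicate 4, at 5.95 and 6.68, and differed by -0.34 and -0.65 without it.

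Immune and inflammatory lists stayed close to 0. Inflammation genes had 16 of 20 above 0 with a median of 0.12, and a median of 0.01 without 40 ppm replicate 4. Ccl12, a monocyte chemokine, read 6.30 on that array and 3.65 to 4.29 on the other 40 ppm arrays, against 3.00 to 4.14 in air. Socs3, the feedback inhibitor of cytokine signalling, differed by 0.27 ± 0.12, and Lcn2, an iron-binding defence protein, by 0.53 ± 0.32. Without 40 ppm replicate 4 these were 0.19 and 0.16, and without both replicate 4 arrays 0.15 and 0.10. Ptgs2 went the other way, at -0.45 ± 0.26, or -0.46 without both replicate 4 arrays. Of 13 macrophage markers 11 lay below 0 with a median of -0.14; Adgre1, which encodes F4/80, differed by -0.42 ± 0.14, and Fabp1 by -0.86 ± 0.35. None of these passed (adjusted p = 0.9995 each).

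Airway secretion genes varied widely between animals in both groups. Agr2, a chaperone of mucin folding, read 5.50, 5.62, 7.67, 7.80 and 7.94 at 40 ppm, against 5.10, 4.59, 4.27, 5.63 and 6.59 in air. Its difference was 1.67 ± 0.66 and the groups overlapped. Reg3g, an antibacterial lectin, differed by 1.54 ± 0.80, and Bpifa1, an airway surface protein, by 1.68 ± 1.12, with air arrays from 6.26 to 13.01. Of the 14 tested members 10 lay above 0 and 4 below, with Muc5ac (-0.11 ± 0.09) among the latter, and none passed. The list median was 0.20, or 0.39 without air replicate 4. Alveolar type 1 (-0.03), alveolar type 2 (-0.02), endothelial (0.04) and fibroblast (-0.02) marker lists had medians close to 0. Those of p53 targets (-0.04), heat shock (0.03) and ribosomal proteins (-0.04) did too, and none of their members passed. Without 1 or both replicate 4 arrays the medians of these 7 lists lay between -0.08 (fibroblast) and 0.11 (endothelial). Smooth muscle and pericyte markers had a median of 0.19 (0.08 without 40 ppm replicate 4), ciliated cell markers of -0.11 (13 of 14 below 0; -0.04 without air replicate 4) and mesothelium of -0.33 (-0.17 without air replicate 4 and -0.49 without 40 ppm replicate 4). The lists with the lowest medians, skeletal muscle (-1.06) and squamous epithelium (-0.65), had medians of -0.01 and -0.00 without air replicate 4.

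The 10 and 120 ppm groups place the 40 ppm values in a dose series; their comparisons with air use the same 5 air arrays. Pon1 averaged 10.72 in air, 10.06 ± 0.31 at 10 ppm, 9.26 ± 0.41 at 40 ppm and 9.75 ± 0.33 at 120 ppm (SD, n = 5 each). Its arrays at 10 ppm read 10.42, 10.11, 10.07, 10.15 and 9.56, and those at 120 ppm read 9.81, 9.36, 10.21, 9.87 and 9.50. The 40 ppm arrays (8.80 to 9.81) overlapped both, and the direct differences did not pass: -0.80 ± 0.19 against 10 ppm (adjusted p = 0.322) and -0.49 ± 0.19 against 120 ppm (adjusted p = 0.930). Set against air, the difference of Pon1 was -0.66 at 10 ppm (adjusted p = 1.00) and -0.97 at 120 ppm (adjusted p = 0.0931).

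The interferon genes at 10 ppm lay at the air level. Irf7 read 6.28 to 8.57 at 40 ppm, against 4.84 to 5.35 at 10 ppm, a difference of 2.15 ± 0.39 without overlap (adjusted p = 0.300). Gm9706 (2.42 ± 0.50), Oasl2 (1.77 ± 0.37), Ddx60 (1.34 ± 0.27) and Ifitm3 (0.32 ± 0.07) had the same adjusted p. The named lower genes beside Pon1 were Aox3 (-0.50 ± 0.14), Ccdc62 (-0.40 ± 0.11), Mesp2 (-0.40 ± 0.12) and Aox1 (-0.38 ± 0.11), none of which passed. Of the 23 genes 15 lay higher at 40 ppm than at 10 ppm without overlap, where 0.535% of all tested genes did, and the list median of that contrast was 1.11. In it 0 genes passed with limma, with 461 at an unadjusted p under 0.05. At 120 ppm Irf7 read 7.35, 7.52, 5.21, 6.47 and 6.99, so that replicate 3 lay within the air range of 4.64 to 5.55. Oasl2 likewise read 5.68 on that array and 7.13 to 8.17 on the other 4. Set against air, the list median was -0.09 at 10 ppm and 0.81 at 120 ppm, with 0 and 1 members higher without overlap, where 0.175% and 0.763% of all tested genes were. The list median of 40 ppm minus 120 ppm was 0.16.

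Between 40 and 120 ppm limma called 0 genes, with 555 at an unadjusted p under 0.05 and a lowest adjusted p of 0.345. Acot1, an acyl-CoA thioesterase, read 7.41, 7.60, 7.21, 7.78 and 7.46 at 40 ppm and 6.63, 6.42, 6.27, 6.98 and 7.00 at 120 ppm, a difference of 0.83 ± 0.16 without overlap. Across all tested genes 0.324% lay higher and 0.254% lower at 40 than at 120 ppm without overlap. Angptl4, an inhibitor of lipoprotein lipase, differed by 1.11 ± 0.24 and Stk36, a kinase needed for motile cilia, by -1.22 ± 0.24. Each of the last 2 passed when 1 array was left out: Stk36 without 40 ppm replicate 1 (-1.44; adjusted p = 0.0229) and Angptl4 without 40 ppm replicate 3 (1.35; adjusted p = 0.0295). Other named genes of this contrast were Fn1, which encodes fibronectin (0.48 ± 0.11), Mmd (0.45 ± 0.09), Wfs1 (0.44 ± 0.10), Zfp979 (-1.46 ± 0.31), Tnn (-0.56 ± 0.14), Nectin4 (-0.39 ± 0.10) and Sod1, the cytosolic superoxide dismutase (-0.26 ± 0.07). Set against air, Acot1 fell at 120 ppm (-1.15 ± 0.16; adjusted p = 0.00942) and Stk36 rose (1.55 ± 0.24; adjusted p = 0.01865), the 2 genes that passed there (0.00877% each way). At 40 ppm the same differences were -0.31 ± 0.16 for Acot1 and 0.33 ± 0.24 for Stk36 (adjusted p = 0.9995 each). Of the core clock genes, Arntl differed by -0.56 ± 0.32 and Dbp, a clock output factor, by 1.04 ± 0.60 between 40 ppm and air. Without both replicate 4 arrays these were -0.87 and 1.71. Dbp ranged from 6.40 to 8.19 at 40 ppm, against 4.44 to 8.03 in air. The clock list had a median of 0.11 against air (0.21 without both replicate 4 arrays) and of -0.44 against 120 ppm, and none of its members passed.

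**Figure D4:**
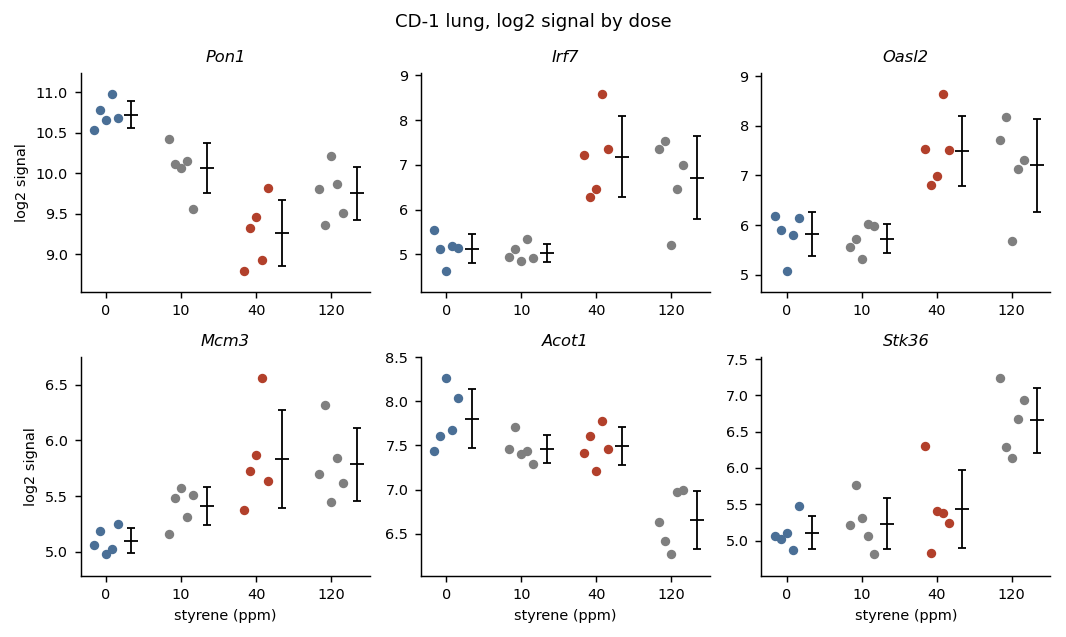
Log2 signal of 6 genes on each CD-1 array by styrene dose (0, 10, 40 and 120 ppm), with the mean and SD beside the points. Pon1 is lowest at 40 ppm, Irf7 and Oasl2 at 10 ppm lie at the air level, 1 array at 120 ppm lies low in both, and Acot1 and Stk36 stand apart at 120 ppm.

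C57Bl/6 WT mice were exposed to the same 40 ppm, and the difference between the responses of CD-1 and WT was tested as an interaction on 40 arrays. It passed for 184 genes, 94 with a positive CD-1 minus WT value (0.824%) and 90 with a negative one (0.789%). A positive value means that the 40 ppm minus air difference was higher in CD-1, not the level. In WT 10.1% of tested genes lay higher without overlap and 8.28% lower, against 0.491% and 0.175% in CD-1. Pon1 did not differ between the strains beyond its error: -1.46 ± 0.19 in CD-1 and -1.59 ± 0.15 in WT, an interaction of 0.13 ± 0.25 (adjusted p = 0.848). Its arrays in WT read 8.41 to 9.41 at 40 ppm, against 10.42 to 10.68 in air.

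Club cell genes differed between the strains. The interaction passed for 6 of 15 markers, all with a positive CD-1 minus WT value, where 0.824% of all tested genes did. The list median was -0.15 in CD-1 and -0.97 in WT. Cyp2f2 differed by -0.18 ± 0.10 in CD-1 and by -0.97 ± 0.08 in WT, where it read 12.04 to 12.59 at 40 ppm, against 13.19 to 13.27 in air; the interaction was 0.79 ± 0.13 (adjusted p = 0.000571). Scgb3a2 differed by -0.28 in CD-1 and -1.10 in WT (interaction adjusted p = 0.00484). Among the genes that passed, Cyp1a1 had the greatest positive interaction, 4.17 ± 0.71 (adjusted p = 0.000846): 0.74 in CD-1, and -3.43 in WT, which read 3.99 to 5.31 at 40 ppm, against 7.47 to 8.38 in air. The CD-1 air arrays, given above, already lay around that WT 40 ppm level. Whether this bears on the interaction was not tested. Chad, a cartilage matrix protein, differed by -0.08 in CD-1 and -2.47 in WT, the transcription factor gene Mycl by -0.17 and -1.94, and the acyl-CoA synthetase Acsm1 by 0.08 and -1.53. The clock gene Per3 (0.46 in CD-1, or 0.79 without both replicate 4 arrays, and -0.96 in WT) passed narrowly (adjusted p = 0.0472) and lost the call when most of the 20 arrays were left out singly (adjusted p up to 0.0938).

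Inflammatory genes differed in the other direction, with 7 of 20 passing with a negative CD-1 minus WT value, where 0.789% of all tested genes did. Their list medians were 0.12 in CD-1 and 0.94 in WT. Among the genes that passed with the most negative interaction, Saa3 differed by 0.30 ± 0.46 in CD-1 and by 3.46 ± 0.40 in WT, where it read 8.14 to 9.34 at 40 ppm, against 4.67 to 5.64 in air. Timp1 (0.79 in CD-1, 3.41 in WT) and the fibrinogen chain Fgg (-0.10 in CD-1, 2.45 in WT) also passed (adjusted p = 0.0311 and 0.000128). Timp1 lost the call without CD-1 replicate 1, 2, 3 or 5 at 40 ppm, WT replicate 2 at 40 ppm or WT replicate 3 in air (adjusted p up to 0.0627). Saa3 and Timp1 in CD-1 rested on 40 ppm replicate 4: without it they differed by -0.29 and 0.14.

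For the interferon list the median was 0.90 in CD-1 and 2.04 in WT. The interaction passed for 3 of 23 genes, all with a negative CD-1 minus WT value, where 0.789% of all tested genes did. Rsad2, which encodes viperin, differed by 0.75 ± 0.38 in CD-1 (0.46 without 40 ppm replicate 4) and 3.31 ± 0.26 in WT (interaction -2.56 ± 0.48, adjusted p = 0.00186). Oasl1 differed by 1.44 in CD-1 and 3.68 in WT, and Mx1 by 1.58 and 3.51 (interaction adjusted p = 0.0124 and 0.0315). Irf7 did not pass (2.06 ± 0.39 in CD-1 and 2.74 ± 0.22 in WT, adjusted p = 0.496), nor did Oasl2 (adjusted p = 0.499). For DNA replication the median was 0.42 in CD-1 and 0.66 in WT, and the interaction passed for 0 of 25 genes. The count of 184 moved with single arrays. It was 707 without CD-1 40 ppm replicate 4 and 300 without WT 40 ppm replicate 5. It was 88 to 114 without CD-1 replicates 2, 3 or 5 at 40 ppm, CD-1 replicate 2 in air, WT replicates 2 or 3 at 40 ppm, or WT replicates 2, 3 or 5 in air.

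**Figure D5:**
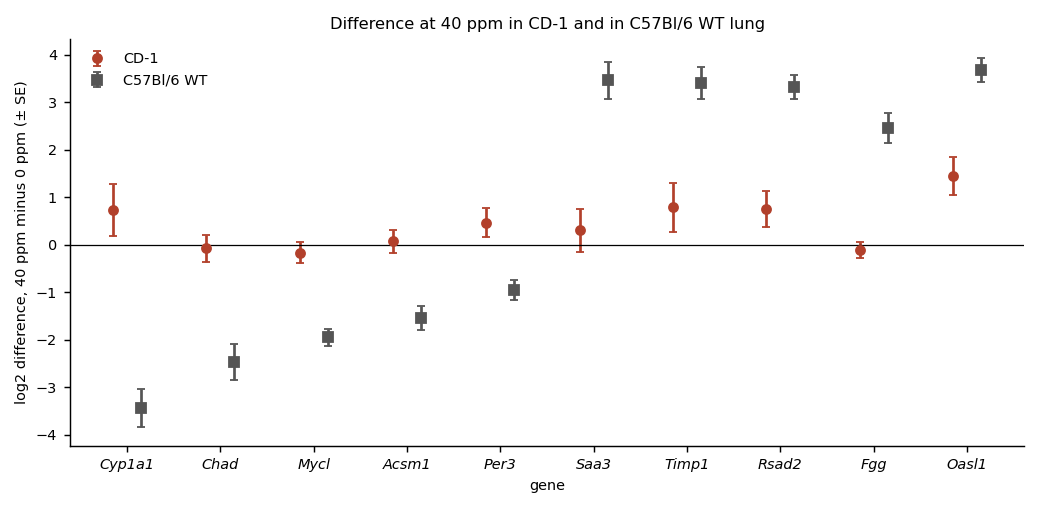
Log2 difference (40 ppm minus 0 ppm, ± SE) in CD-1 (circles) and C57Bl/6 WT (squares) for the 5 genes with the greatest positive and the 5 with the greatest negative interaction among the 184 that passed. The CD-1 values lie between -0.17 and 1.44, and the WT values between -3.43 and 3.68.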

How the data were processed

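RNA of CD-1 mouse lungs was measured on 20 of the 80 expression arrays of the series, and C57Bl/6 WT lungs on a further 20 arrays that entered the strain comparison. The deposited table holds log2 values, made by the authors with RMA in Partek per the submitters' processing notes. Their software version and options were not given in the sources used here. RMA sets all arrays to 1 distribution, so only changes relative to the rest of the array can be seen, and low signals are compressed. Of 45037 probe sets, 28898 have 1 gene symbol, 551 several and 15588 none. Each of 17097 genes was represented by its brightest probe set on average over the 80 arrays, and 11406 genes above the table median of 4.28 on at least 5 arrays were tested.

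The model was limma's (version 3.58.1, lmFit and eBayes, R 4.3.3), with 1 mean per dose over the 20 CD-1 arrays (16 residual degrees of freedom). The strain comparison used 1 mean per strain and dose over 40 arrays (32 degrees of freedom). WT differences and their errors came from a fit of the 20 WT arrays alone. Benjamini-Hochberg adjustment ran over all tested genes with a threshold of 0.05. Tests are two-sided. P values measure the spread between these arrays, and with 5 arrays a group their number limits the precision. No overlap means that all 5 arrays of one group lay beyond all 5 of the other. The code was tested on simulated data.

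Named genes were Cyp2f2 and, for 40 ppm against air, 15 genes in each direction: those that passed, by size of difference, filled up with the genes of lowest p (on the condition that each group's arrays lay on 1 side of the other's mean). The same rule took 5 in each direction for 40 against 10 and 120 ppm and, without that condition, for the strain comparison, where all 10 passed and so were taken by size. Up to 4 members of each described list were added. Where a list is described by more members than that, they were added to account for the list. The members and the 42 gene lists were chosen with earlier results of these data known. Replicate numbers were checked as pairs and did not pair the arrays: same-numbered deviations correlated at -0.08, 0.16, 0.10, 0.09 and -0.07. Alternatives changed the array scaling, the filter, the variance model, array weights, the probe sets, the arrays in the fit and the threshold, and left out each array in turn. Leaving out both replicate 4 arrays was added after seeing the data. Promoter windows came from RefSeq's table (GRCm38.p6).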

Additional observations from a re-analysis of the deposited data

Results flagged for a closer look

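In 162 checks of a group of 5 arrays (81 genes in each of the CD-1 40 ppm and 0 ppm groups), 12 found an array far from the other 4 by Dixon's criterion. Chance flags about 1 in 20 groups, or 8.1 of 162. Of the 12, 5 fell on 40 ppm replicate 4 and 3 on air replicate 4.

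On 40 ppm replicate 4, Cyp2f2 read 12.50, with the other 40 ppm arrays at 12.85 to 12.96, and Ifitm3 read 12.39, with the others at 12.00 to 12.11. Lcn2 read 11.14 there (others 9.07 to 9.48), Ccl12 6.30 (others 3.65 to 4.29) and the mitotic kinase Aurkb 5.26 (others 3.38 to 3.80). On 40 ppm replicate 5 the macrophage mannose receptor Mrc1 read 9.65 (others 9.12 to 9.24).

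On air replicate 4, Mfsd4a read 4.45 (other air arrays 3.86 to 4.00), Il1r2, the decoy interleukin 1 receptor, read 4.42 (others 3.46 to 3.70), and the disulfide isomerase Pdia6 read 9.41 (others 9.75 to 9.84). On air replicate 5, Mcm6 read 7.90 (others 7.36 to 7.51) and Lcn2 9.60 (others 8.86 to 9.08). On air replicate 2, Ccna2 read 3.83 (others 4.47 to 4.67).

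For 18 named genes the response to 40 ppm differed between CD-1 and WT by the interaction test at an adjusted p under 0.05. The CD-1 minus WT value was positive for Cyp1a1 (4.17), Chad (2.39), Mycl (1.77), Acsm1 (1.61), Per3 (1.42), Slc4a5 (1.00), Scgb3a2 (0.82), Cyp2f2 (0.79), Ldhb (0.61) and Hlcs (0.49). It was negative for Saa3 (-3.15), Timp1 (-2.62), Rsad2 (-2.56), Fgg (-2.55), Oasl1 (-2.24), Ccl12 (-1.98), Mx1 (-1.93) and Socs3 (-1.18). The first 5 genes given in each direction were named for passing this same test, so their flags were fixed in advance. Over all tested genes 0.824% passed with a positive value and 0.789% with a negative one. The largest adjusted p among the 18 was 0.0480, for Hlcs.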

How the results depend on the processing

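The 40 ppm against air comparison gave 1 call under each alternative except 1: without both replicate 4 arrays it gave 0. Pon1 ran from -1.60 to -1.32 over all alternatives (adjusted p 0.000554 to 0.0698). With the replicate number as a block it was again the 1 call (adjusted p = 0.0282), and the numbers do not pair the arrays. Irf7 ran from 1.68 to 2.28 and passed in no alternative (adjusted p 0.103 to 0.9999). The 40 against 120 ppm count, 0, was 0 to 1 when single arrays were left out. The 120 ppm against air count, 2, was 5 without air replicate 4 and 4 with the replicate block. The CD-1 minus WT count, 184, was 602 with array weights, 596 without both CD-1 replicate 4 arrays, and 88 to 707 when single arrays were left out. The cause of these moves was not tested. Counts of 40 against 10 ppm and 10 ppm against air stayed within 1.5 times of the value given. Of the values of named genes under the alternatives, 2236 kept their direction and side of the threshold, 26 kept their direction and lost the call, and 2 gained one. None reversed after being called. Signals near the table median of 4.28, such as Cxcl10, Mx1 and Apol9a in air, lie where array values are compressed, so their differences may be understated.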

Other observations

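H2-Ea, an MHC class II alpha chain gene chosen here after its values were seen, split the air arrays. It read 5.29, 4.77, 5.81, 6.36 and 6.03 at 40 ppm, against 10.29, 6.28, 10.60, 5.97 and 10.17 in air. The difference was -3.01 ± 1.06 (SE, limma adjusted p = 0.9995), since 3 air arrays lay above 10 and the other 2 lay among the 40 ppm arrays. The MHC class II list as a whole had a median difference of -0.11 (-0.17 without both replicate 4 arrays), with 9 of 11 members below 0 and none that passed.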
